A study of Mus musculus with 4 samples.

Results

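The uridine diphosphate glucuronosyltransferases (UGT), the glutathione S-transferases (GST) and the cytosolic sulfotransferases (SULT) attach glucuronic acid, glutathione or sulfate to drugs, dietary compounds, bile acids, steroids and reactive lipids. The conjugates dissolve better in water and leave the cell through export pumps. In the gut these enzymes are abundant in the epithelium, where they act on what comes from the lumen before it reaches the blood.

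The genes were taken by name: every spot other than controls whose gene name starts with Ugt and a digit, with Gsta, Gstk, Gstm, Gsto, Gstp or Gstt, or with Sult and a digit, and that was well above background on at least 1 of 4 arrays. Of 93 spots with such a name, for 75 probes and 51 genes, 79 spots, 61 probes and 41 genes passed, of 22162 genes measured in all. These were 14 of 15 UGT genes, 18 of 19 GST genes and 9 of 17 SULT genes. Well above background on all 4 arrays were 37: 11 UGT, 18 GST and 8 SULT genes. The exceptions were Ugt2a1, Ugt2a3, Ugt3a1 and Sult2a2. Gstt4, Ugt2b1, Sult1c1, Sult2a1, Sult2a3, Sult2a4, Sult2a6, Sult2a7, Sult3a1 and Sult6b1 were well above background on no array. At the edge of this rule, the 14 probes left out had highest relative signals of 0.00337 to 0.0133, and the 5 probes kept through 1 array alone had 0.0196 to 0.0648.

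The study asked about colitis without the secreted phospholipase A2 of group X, which cuts fatty acids off phospholipids. Colons of C57BL/6 mice were measured on single-colour arrays in 4 groups. KO DSS mice lacked the enzyme's gene (Pla2g10 -/-) and drank 1% (w/v) dextran sulfate sodium (DSS), a polymer that injures the colon lining, until day 7. WT DSS mice had both copies of Pla2g10 and drank the same DSS. KO naive mice lacked Pla2g10 and had no DSS, and WT naive mice had both copies and no DSS. Each group is 1 array of RNA mixed from 3 colons, so a difference between 2 groups has no replicate check and no p-value. The spread between mice cannot be seen, and the small number of arrays limits the precision of every value. The labels' age and sex fields appear to be swapped and read together as male mice of 9 weeks, while the growth notes give 8 weeks.

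All values below are relative signals, a probe's processed signal over its array's 75th percentile, and a value of 1 is the level of that percentile. Log2 ratios are differences of these on the log2 scale. Spots well above background made up 67.8% of the array in KO DSS, 70.4% in WT DSS, 68.6% in KO naive and 67.7% in WT naive, and no array had a saturated spot (0 on each). Pla2g10 itself had a relative signal of 0.993 in KO DSS, 19.0 in WT DSS, 1.69 in KO naive and 15.8 in WT naive. Its signal was thus low in both pools labelled KO, though where the deletion lies relative to its probe is not known here. Spots that repeat a probe on an array scattered with a median log2 SD between 0.0618 and 0.0718, a measure of noise within an array only.

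Several of these genes are near copies of one another, and the probe sequences, taken from the scanner files, show how far the array tells them apart. The first set comes from the same coding stretch of 3 mu-class GST genes on chromosome 3, the GST subfamily furthest from its naive level in KO DSS mice. Capitals mark the 32 bases that are identical in all 3 probes over the 55 bases they share. Positions are mm9, minus strand, chr3:107769290-107770549 for Gstm3 and chr3:107732073-107733247 for Gstm7, whose probes each bridge an intron, and chr3:107745052-107745111 for Gstm6.
Gstm3: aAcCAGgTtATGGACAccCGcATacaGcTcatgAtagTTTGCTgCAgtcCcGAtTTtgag
Gstm6: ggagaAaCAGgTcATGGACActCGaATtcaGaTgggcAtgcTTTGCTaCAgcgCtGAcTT
Gstm7: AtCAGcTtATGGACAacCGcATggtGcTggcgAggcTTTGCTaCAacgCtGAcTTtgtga

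The pi-class genes Gstp1 and Gstp2 are neighbours on chromosome 19. Their probes share 35 bases with 5 mismatches, closer than any other pair of measured GST probes. The Gstp1 probe (chr19:4035908-4036723, mm9, minus strand) bridges an intron and the Gstp2 probe lies at chr19:4040983-4041042. Capitals mark the 30 identical bases.
Gstp1: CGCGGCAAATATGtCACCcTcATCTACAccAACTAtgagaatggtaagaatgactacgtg
Gstp2: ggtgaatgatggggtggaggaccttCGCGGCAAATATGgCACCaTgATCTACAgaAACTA

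The Ugt1a genes are known to splice alternative first exons to the same last exons, so a probe in the shared exons reads several enzymes. Both probes below lie well upstream of the other Ugt1a probes described here, Ugt1a10 at chr1:89952780-89952839 and Ugt1a6b at chr1:90004249-90004308 (mm9, plus strand). Over 54 shared bases 32 are identical, marked in capitals.
Ugt1a10: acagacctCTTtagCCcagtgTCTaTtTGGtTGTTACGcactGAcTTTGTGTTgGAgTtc
Ugt1a6b: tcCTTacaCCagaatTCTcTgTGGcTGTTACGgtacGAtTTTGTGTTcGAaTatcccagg

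The brightest Ugt1a6b probe (chr1:90115493-90115552) and the Ugt1a6a probe (chr1:90116514-90116573) lie close together at the far end of the locus, and may read transcripts of several Ugt1a genes. The brightest Gstm1 probe is placed by the files on chromosome 5 (chr5:117082490-117082549), away from the other Gstm probes. The brightest Gstp2 probe has no position in the files. Values of Gstm, Gstp, Ugt1a, Ugt2b and Sult2a genes can include signal from a paralog.

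**Figure D1:**
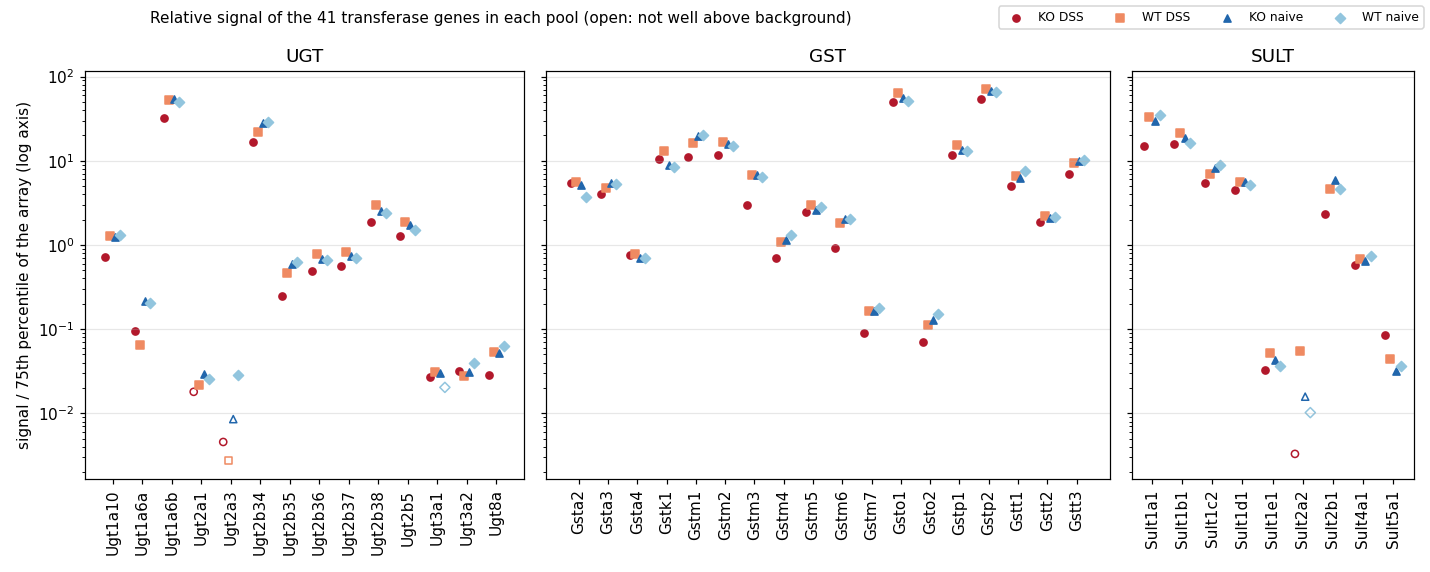
Relative signal (signal over the array's 75th percentile, log axis) of the 41 transferase genes in the KO DSS, WT DSS, KO naive and WT naive pools, 1 array each. Filled points are well above background and open points are not; KO DSS is the lowest pool for 33 of the 41 genes.

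In colons of KO mice with DSS most of these genes stood below every other pool. KO DSS was the lowest of the 4 pools for 33 of 41 genes (80.5%), against 39.1% of all genes. By family these were 10 of 14 UGT, 15 of 18 GST and 8 of 9 SULT genes. Counting only genes measured on all 4 arrays, the share was 31 of 37 members (83.8%), against 38.4% of all such genes. For the brighter genes, with a mean relative signal of at least 1, it was 23 of 25 members, against 39.4% of all genes as bright. The WT DSS pool was the lowest for 3 members, the KO naive pool for 1 and the WT naive pool for 4. In whole colon, fewer epithelial cells and less transcript per cell cannot be told apart.

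The first comparison sets KO DSS against KO naive. The median log2 ratio over the 41 genes was -0.44, against -0.13 over all genes. It was -0.72 for UGT, -0.38 for GST and -0.36 for SULT genes, and 36 of 41 members were below 0, against 61.8% of all genes. At 2-fold, 6 members were lower (all genes 5.0%) and 1 was higher (all genes 5.67%). At 1.5-fold, 16 members were lower (all genes 15.6%). The 6 at 2-fold were Gstm3, Gstm6, Sult1a1, Sult2b1, Ugt1a6a and Ugt2b35, and the one above was Sult5a1.

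The second comparison sets WT DSS against WT naive, where the families as wholes stood near their naive level. The median log2 ratio was 0.02 over the 41 genes, against -0.02 over all genes, with -0.15 for UGT, 0.03 for GST and 0.09 for SULT genes. Among all genes with a mean relative signal of at least 1, the median was 0.14 and 35.5% were below 0. The 25 members that bright had a median of 0.05, with 11 below 0. Below 0 were 20 of 41 members, against 51.6% of all genes, but this count was 14 with median scaling, 27 after quantile normalization and 28 after normexp with quantile normalization, so the direction of members near 0 is not settled here. Lower at 2-fold were Ugt1a6a and Ugt2a3, 2 of 41 (all genes 5.13%), and 1 member was higher, Sult2a2 (all genes 3.44%). Ugt2a3 was well above background in WT naive alone and Sult2a2 in WT DSS alone. Each thus passed the rule only through the pool where it was high. Of the 37 genes measured on all 4 arrays, 1 was lower (764 of 19322 such genes) and 0 were higher (498 of 19322). At 1.5-fold, 3 of all 41 members were higher (all genes 7.95%) and again 2 were lower (all genes 12.8%). Dividing each array by its median moved the median of all genes in this comparison to 0.12 and that of the members to 0.16. After quantile normalization the members' median was -0.07.

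**Figure D2:**
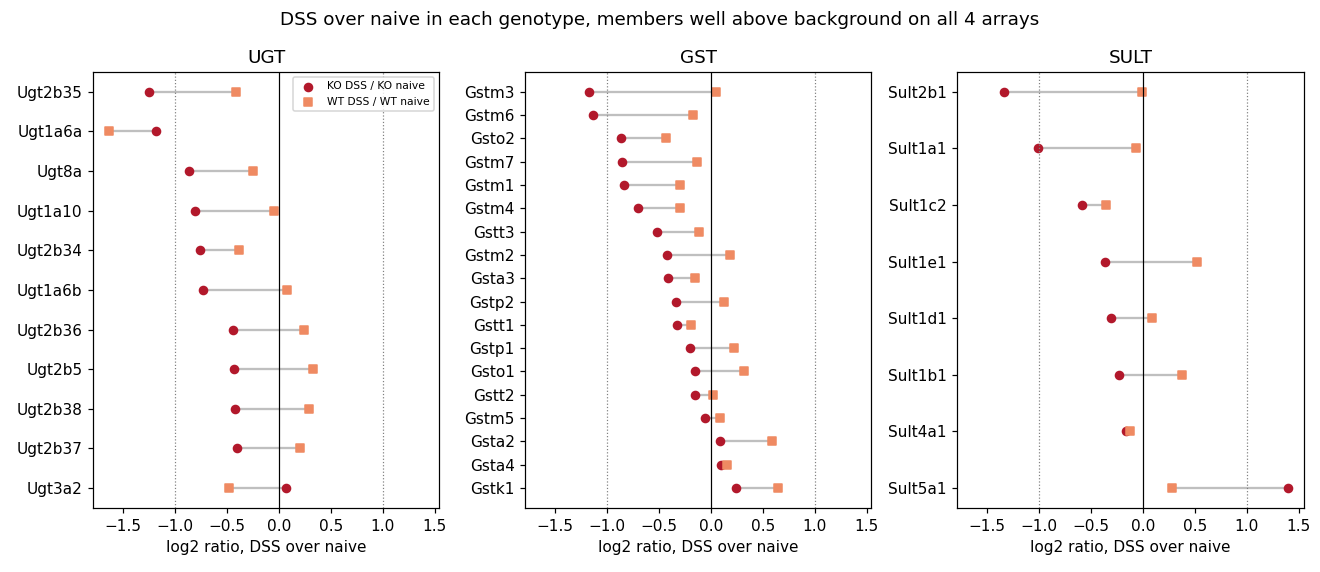
Log2 ratio of DSS over naive in KO (circles) and WT (squares) for the 37 genes well above background on all 4 arrays, by family, with dotted lines at 2-fold. The KO point lies left of the WT point for 34 of the 37 genes; Ugt1a6a, Ugt3a2 and Sult5a1 are the exceptions.

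The difference of the 2 responses, KO minus WT on the log2 scale, had a median of -0.47 over the 41 genes, against -0.10 over all genes. It was -0.65 for UGT, -0.43 for GST and -0.60 for SULT genes, and below 0 for 37 of 41 members, against 59.9% of all genes. Among all genes with a mean relative signal of at least 1, the median was -0.19 and 75.1% were below 0. The 25 members that bright had a median of -0.47 and all were below 0. All 18 GST genes were below 0. With 1 array a group this difference leaves nothing to test it with.

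KO was then set against WT, with DSS and without. With DSS the median log2 ratio was -0.41 over the 41 genes, against -0.09 over all genes. It was -0.55 for UGT, -0.39 for GST and -0.41 for SULT genes. Below 0 were 37 of 41 members, against 60.9% of all genes, among them all 18 GST genes. Bright genes as a whole also stood lower here, 75.7% of all genes with a mean relative signal of at least 1, and of the members that bright all 25 were below 0. At 2-fold, 4 members were lower (all genes 2.2%) and 0 higher (all genes 5.06%). These 4 were Gstm3, Gstm6, Sult1a1 and Sult2a2. Sult2a2 passed the rule only through WT DSS, the pool where it was high. Of the 37 genes measured on all 4 arrays, 3 were lower (248 of 19322 such genes) and 0 higher (731 of 19322). At 1.5-fold, 15 of all 41 members were lower (all genes 5.64%) and 1 higher, Sult5a1 (all genes 10.4%).

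Without DSS the genotypes lay close together. The median log2 ratio of KO naive over WT naive was 0.03 over the 41 genes and 0.02 over all genes. At 2-fold, 0 members were higher (all genes 1.13%) and 0 lower (all genes 1.04%). At 1.5-fold, 0 were higher (all genes 3.2%) and 1 was lower (all genes 2.24%), the dim Ugt2a3. That gene passed the rule only through WT naive, the higher pool here. Over the 37 genes well above background on all arrays the log2 ratios ran between -0.36 and 0.46. The comparisons share arrays: each array is in 2 of them, and the KO DSS array is in both of those where the members stood low.

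**Figure D3:**
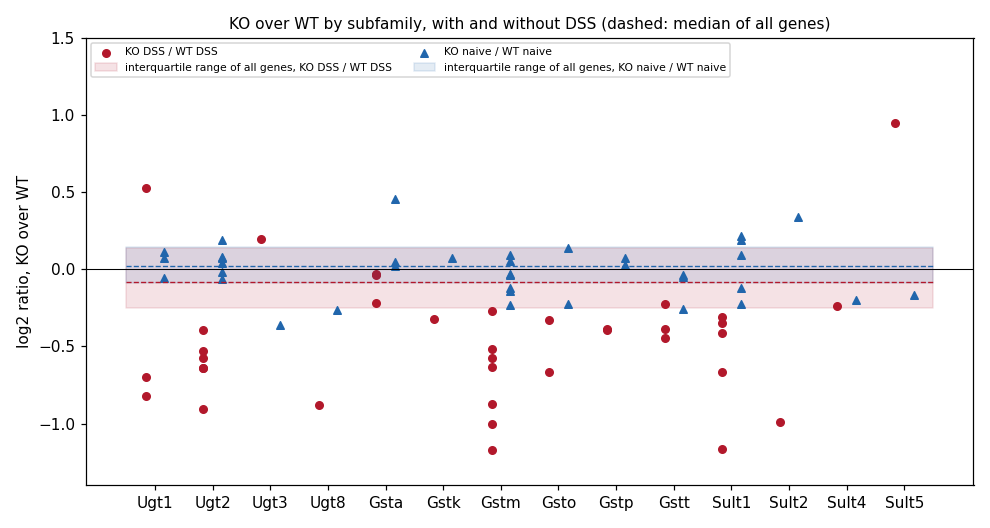
Log2 ratio of KO over WT by subfamily for the 37 genes measured on all 4 arrays, with DSS (circles) and without (triangles). Shading spans the interquartile range of all genes and dashed lines their medians; with DSS 34 of the 37 genes lie below 0, and without DSS 18 do.

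Across the arrays, each level of DSS and of genotype holds 2 pools, and an additive limma fit over all genes tested the mean effect of each. For DSS it called 0 of 41 members at an adjusted p under 0.05 (all genes 0.0%). The lowest adjusted p of a member was 0.205, that of Ugt1a6a. At an unadjusted p under 0.05 there were 2 members, Ugt1a6a and Gsto2, against 18.3% of all genes. For genotype it called 0 members (all genes 0.0%), and 0 had an unadjusted p under 0.05 (all genes 3.89%). The error term of this fit also takes up any part of the DSS response that is not alike in KO and WT.

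Among the glucuronosyltransferases, the Ugt1a locus supplies enzymes for phenols, bilirubin and many drugs. Ugt1a6b, of the phenol-conjugating pair Ugt1a6a and Ugt1a6b, had a relative signal of 32.4 in KO DSS, 52.4 in WT DSS, 53.8 in KO naive and 49.8 in WT naive. Ugt1a10, an enzyme best known from the gut, had 0.714 in KO DSS, 1.26 in WT DSS, 1.25 in KO naive and 1.30 in WT naive. For both, 3 pools lay close together and KO DSS stood apart, 1.62-fold lower than WT DSS for Ugt1a6b and 1.77-fold lower for Ugt1a10. The upstream probe of Ugt1a6b printed above gave 0.482 in KO DSS, 0.795 in WT DSS, 0.777 in KO naive and 0.816 in WT naive, again with KO DSS apart from the other 3 pools.

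Ugt1a6a had another order of pools. Its signal was 0.0946 in KO DSS, 0.0656 in WT DSS, 0.215 in KO naive and 0.204 in WT naive. Both DSS pools were lower than both naive pools, 2.27-fold in KO and 3.11-fold in WT, and KO DSS was the higher of the DSS pools. Its mean DSS effect in the limma fit was -1.41 on the log2 scale (SE 0.204, adjusted p = 0.205, lower in both genotypes). The adjusted p was 0.0199 when dim probes on any array were left out and 0.0135 with a trended, robust variance, so the call depends on these settings. Its probe lies near the bright Ugt1a6b probe at the far end of the locus, yet that probe had a log2 ratio of 0.07 in WT DSS over WT naive, against -1.64 for Ugt1a6a.

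The Ugt2b genes, clustered on chromosome 5, conjugate steroids, bile acids and fatty acids. Ugt2b34 had 16.7 in KO DSS, 21.9 in WT DSS, 28.2 in KO naive and 28.6 in WT naive, and Ugt2b35 had 0.250, 0.468, 0.596 and 0.622 in the same order of pools. For these 2 genes both DSS pools lay below both naive pools and KO DSS was the lowest. Ugt2b35 was 2.39-fold lower in KO DSS than in KO naive, and 1.33-fold lower in WT DSS than in WT naive. Ugt2b38 had 1.89 in KO DSS, 2.95 in WT DSS, 2.54 in KO naive and 2.42 in WT naive. Ugt2b5, Ugt2b36 and Ugt2b37 showed the order of Ugt2b38, with WT DSS the highest pool and KO DSS the lowest. Their log2 ratios with DSS were -0.45 to -0.40 in KO and 0.20 to 0.33 in WT. Probes of Ugt2b37 and Ugt2b5 share 55 bases with 9 mismatches, so their values may not be separate measurements.

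The remaining UGT genes were dim. Ugt8a, which adds galactose to ceramide and is known from myelin, had 0.0289 in KO DSS, 0.0533 in WT DSS, 0.0528 in KO naive and 0.0635 in WT naive. Ugt3a2 ranged over the pools between 0.0281 and 0.0393. Ugt2a3 had 0.00457 in KO DSS, 0.00278 in WT DSS, 0.00854 in KO naive and 0.0282 in WT naive. It was well above background in WT naive alone, and its signal in WT DSS was lower by at least 2.5-fold. Ugt2a1, known from the olfactory epithelium, reached 0.0295 in KO naive at most, and in KO DSS its signal was not well above background. Ugt3a1 had its highest signal, 0.0313, in WT DSS, and in WT naive its signal was not well above background.

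Among the glutathione transferases, the mu class (Gstm), which acts on epoxides and other electrophiles, was lower in KO DSS than in KO naive for 7 of 7 genes. Its median log2 ratio was -0.84 in KO and -0.13 in WT. Gstm3 had 2.98 in KO DSS, 6.69 in WT DSS, 6.71 in KO naive and 6.48 in WT naive, so that 3 pools differed by 0.05 at most on the log2 scale and KO DSS was 2.25-fold below WT DSS. Its second probe, printed above, gave a smaller gap, 1.83 in KO DSS, 3.06 in WT DSS, 2.99 in KO naive and 3.15 in WT naive. Gstm6 had 0.911 in KO DSS, 1.83 in WT DSS, 2.01 in KO naive and 2.05 in WT naive, 2.01-fold lower in KO DSS than in WT DSS. For both genes every naive pool and WT DSS lay well above KO DSS.

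Gstm1, the major mu enzyme of mouse liver, had 11 in KO DSS, 16.4 in WT DSS, 19.7 in KO naive and 20.2 in WT naive. Gstm4 had 0.697, 1.08, 1.13 and 1.33 in the same order. In both genes WT DSS also stood below the naive pools, 1.23-fold below WT naive in each. Gstm7 had 0.0903 in KO DSS, 0.165 in WT DSS, 0.164 in KO naive and 0.181 in WT naive, the pattern of Gstm3 at a dim probe. Gstm2 was 11.8 in KO DSS, 16.9 in WT DSS, 15.8 in KO naive and 14.8 in WT naive. Gstm5 differed least, between 2.49 in KO DSS and 3.00 in WT DSS.

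In KO, the medians of the other GST classes lay nearer to naive than that of Gstm, between -0.51 for Gsto and 0.24 for Gstk. Gstp2, of the pi class that is common in epithelia, had 54.1 in KO DSS, 70.6 in WT DSS, 68.3 in KO naive and 64.9 in WT naive. Its neighbour Gstp1 had 11.7, 15.3, 13.4 and 13.2 in the same order, and for both KO DSS was 1.31-fold below WT DSS. Gsto1, an omega-class enzyme that reduces dehydroascorbate, had 50.4 in KO DSS, 63.4 in WT DSS, 56.2 in KO naive and 51.0 in WT naive. Its dim relative Gsto2 had 0.0703 in KO DSS, 0.111 in WT DSS, 0.128 in KO naive and 0.150 in WT naive, lower with DSS in both genotypes. The theta-class genes Gstt1, Gstt2 and Gstt3 had log2 ratios with DSS of -0.52 to -0.15 in KO and -0.20 to 0.02 in WT.

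Only 3 GST genes were above 0 in KO DSS against KO naive. Gstk1, the kappa-class enzyme of mitochondria and peroxisomes, had 10.5 in KO DSS, 13.1 in WT DSS, 8.86 in KO naive and 8.43 in WT naive. Both DSS pools were above both naive pools, 1.18-fold in KO and 1.56-fold in WT. The alpha-class genes Gsta2 and Gsta4, which reduce lipid peroxides and conjugate their aldehydes, had log2 ratios of 0.09 and 0.10 in KO and of 0.58 and 0.15 in WT. Gsta3, of the same class, was at -0.42 in KO and -0.16 in WT. A further pi-class gene, Gstp3, stands in the files under an older name outside the rule, with 0.370 in KO DSS, 0.389 in WT DSS, 0.182 in KO naive and 0.190 in WT naive. It was 2.04-fold higher with DSS in KO and 2.05-fold in WT. Its adjusted p in the limma fit was 0.205, 0.0280 when dim probes on any array were left out, and 0.0185 with the trended, robust variance.

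Among the sulfotransferases, Sult1a1, which sulfates phenols, had 14.8 in KO DSS, 33.2 in WT DSS, 29.8 in KO naive and 34.7 in WT naive. KO DSS was 2.24-fold below WT DSS and 2.01-fold below KO naive. The 2 Sult1a1 probes agreed on the second of these within 0.00415 on the log2 scale. Sult2b1, which sulfates cholesterol, had 2.32 in KO DSS, 4.60 in WT DSS, 5.87 in KO naive and 4.64 in WT naive, 2.53-fold lower in KO DSS than in KO naive. WT DSS and WT naive differed by 0.01 on the log2 scale.

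Sult1b1, a sulfotransferase of phenols and thyroid hormone, had 15.9 in KO DSS, 21.2 in WT DSS, 18.6 in KO naive and 16.3 in WT naive, so that KO DSS and WT naive were nearly level. Sult1c2 had 5.52 in KO DSS, 7.03 in WT DSS, 8.29 in KO naive and 9.02 in WT naive, lower with DSS in both genotypes. Sult1d1, which acts on catecholamines, had a log2 ratio with DSS of -0.31 in KO and 0.09 in WT. The estrogen sulfotransferase Sult1e1 was dim, at 0.0330 in KO DSS, 0.0522 in WT DSS, 0.0424 in KO naive and 0.0366 in WT naive.

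Sult4a1, known from the brain, had 0.580 in KO DSS, 0.685 in WT DSS, 0.652 in KO naive and 0.747 in WT naive. Sult5a1 ran against the others, with 0.0843 in KO DSS, 0.0438 in WT DSS, 0.0321 in KO naive and 0.0361 in WT naive, 2.63-fold higher in KO DSS than in KO naive. It was the single member whose highest pool was KO DSS. Sult2a2, of the hydroxysteroid and bile acid class best known from liver, had 0.00330 in KO DSS, 0.0545 in WT DSS, 0.0158 in KO naive and 0.0102 in WT naive. It was well above background in WT DSS alone. It was at least 3.86-fold lower in KO DSS than in WT DSS, and at least 3.32-fold higher in WT DSS than in WT naive. Its probe shares 59 bases with the Sult2a1 probe, with 5 mismatches, and the Sult2a1 probe was not well above background on any array.

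For some members, different probes of the same gene gave a check within these arrays. Of the members past 2-fold, Sult2b1, Ugt1a6a, Sult5a1, Ugt2a3 and Sult2a2 had no second probe well above background. For 14 genes with at least 2 probes well above background on every array, all probes of a gene had the same sign in KO DSS over KO naive for 14 of 14 genes and in KO DSS over WT DSS for 14 of 14. The widest gap between probes was that of Gstm3, 0.464 and 0.428 on the log2 scale, and the median gap was 0.0832 and 0.0822. The second Gstm3 probe, at -0.71 and -0.74, did not reach 2-fold in either comparison. Nor did 1 of the 3 Gstm6 probes, at -0.92 and -0.89. In WT DSS over WT naive the signs matched for 11 of 14 genes and in KO naive over WT naive for 6 of 14. Most ratios in those 2 comparisons were near 0. Probes of a gene share the RNA pool, so they do not speak to the spread between mice.

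**Figure D4:**
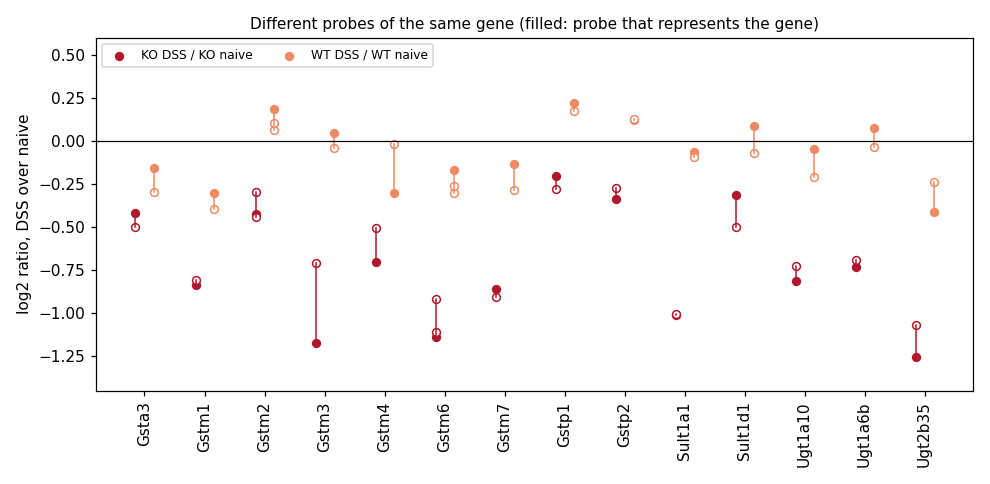
Log2 ratio of DSS over naive for each probe of the 14 genes with at least 2 probes well above background on all arrays, in KO (dark) and WT (light); filled points are the probe that represents the gene and lines join the lowest and the highest probe. The KO points of all 14 genes lie below 0, with the widest spread for Gstm3.

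Partners of these enzymes were read from 6 lists. Of 14 genes that make or carry the cofactors, 2 were at least 2-fold lower in KO DSS than in KO naive (all genes 5.0%) and 0 were in WT DSS against WT naive (all genes 5.13%). Over the list, log2 ratios had a median of -0.48 in KO and -0.10 in WT. Ugdh, which makes UDP-glucuronic acid, had 16.7 in KO DSS, 28.3 in WT DSS, 36.6 in KO naive and 35.6 in WT naive. Slc26a2, a sulfate carrier, had 1.66, 2.85, 3.85 and 4.68 in the same order. Papss2, which makes the sulfate donor, had 23.0 in KO DSS, 31.7 in WT DSS, 38.7 in KO naive and 35.4 in WT naive. For these 3 genes both DSS pools lay below both naive pools and KO DSS was the lowest. Gclc, of the rate-limiting enzyme of glutathione synthesis, had log2 ratios of -0.57 in KO and -0.19 in WT.

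Of 7 export pumps, 3 were at least 2-fold lower in KO DSS than in KO naive (Abcb1a, Abcc2 and Abcc3, where all genes gave 5.0%) and 1 in WT DSS than in WT naive (Abcc2, where all genes gave 5.13%). Their median log2 ratios were -0.55 in KO and -0.43 in WT. Abcc3, which carries glucuronides out of the cell, had 7.47 in KO DSS, 9.98 in WT DSS, 15.6 in KO naive and 13.5 in WT naive. Abcg2, a pump for sulfates and drugs, had 7.44, 10.4, 10.9 and 8.78 in the same order. The pumps as a list lay below naive in both genotypes.

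Of 16 receptors and factors known to control these enzymes, 3 were at least 2-fold lower in KO DSS than in KO naive, Nr1i3, Ppara and Vdr (all genes 5.0%), and 0 were higher (all genes 5.67%). Nr1i3, the constitutive androstane receptor, had 0.0190 in KO DSS, 0.0533 in WT DSS, 0.144 in KO naive and 0.167 in WT naive. It was also the 1 gene of the list past 2-fold in WT DSS against WT naive, where all genes gave 5.13%, and in KO DSS against WT DSS, where all genes gave 2.2%. Ahr, the receptor for dioxins and dietary indoles, and Nfe2l2, the factor that answers oxidants, had log2 ratios with DSS of -0.05 and -0.25 in KO and of -0.34 and -0.17 in WT.

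Of 15 other known targets of Nfe2l2, 1 was at least 2-fold lower in KO DSS than in KO naive (Cbr3; all genes 5.0%) and 1 higher (Hmox1; all genes 5.67%). Over the list, log2 ratios had a median of -0.07 in KO and 0.29 in WT, and -0.32 in KO DSS over WT DSS. There 12 of 15 were below 0, against 60.9% of all genes and 75.7% of genes with a mean relative signal of at least 1. In that comparison Cbr3 was the 1 gene past 2-fold lower (all genes 2.2%), and Slc7a11, of a cystine carrier, the 1 higher (all genes 5.06%). Hmox1, the heme-degrading enzyme, had 1.21 in KO DSS, 0.682 in WT DSS, 0.343 in KO naive and 0.320 in WT naive. Cbr3, a carbonyl reductase, had 9.66, 21.8, 21.8 and 23.2 in the same order, the pattern of Gstm3. Nqo1, a quinone reductase, had 0.740 in KO DSS, 1.17 in WT DSS, 1.17 in KO naive and 1.11 in WT naive.

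With DSS, other conjugating enzymes lay nearer to their naive level than the transferases in KO, but further from it in WT. Over 13 measured of 14 others, among them the microsomal GST genes and the methyltransferases, the median log2 ratio with DSS was -0.02 in KO and 0.31 in WT, and 0 were lower at 2-fold in KO (all genes 5.0%) or in WT (all genes 5.13%). In KO DSS over WT DSS their median was -0.13, with 10 of 13 below 0. This compares with 60.9% of all genes and 75.7% of genes with a mean relative signal of at least 1. Nnmt, which methylates nicotinamide, was the 1 gene higher at 2-fold in KO (all genes 5.67%) and in WT (all genes 3.44%), with 0.310 in KO DSS, 0.190 in WT DSS, 0.0489 in KO naive and 0.0844 in WT naive. The 6 hydrolases that undo conjugation had medians of -0.03 in KO and 0.04 in WT, with 0 past 2-fold.

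**Figure D5:**
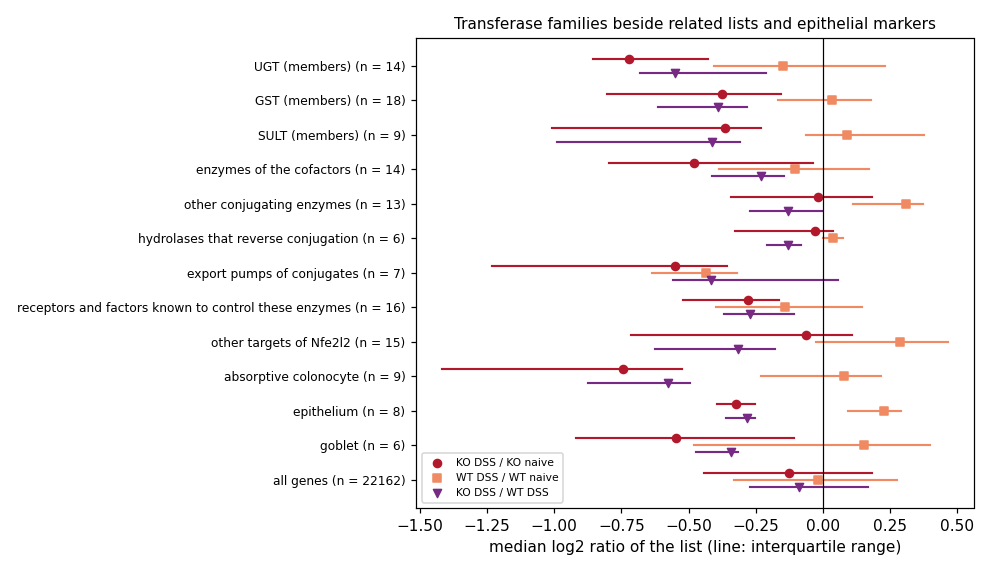
Median log2 ratio (points) and interquartile range (lines) of the 3 transferase families, 6 related lists, 3 lists of epithelial markers and all genes, for KO DSS over KO naive, WT DSS over WT naive and KO DSS over WT DSS. The absorptive colonocyte markers lie as low as the UGT genes in KO DSS over KO naive, at -0.74 and -0.72.

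Summed markers of the epithelium were lowest in the same pool, though not every single marker was. Of 10 markers of absorptive colonocytes 9 were measured, on all arrays, and 9 of 9 were lower in KO DSS than in KO naive (all genes 61.8%) and in KO DSS than in WT DSS (all genes 60.9%, and 75.7% of genes with a mean relative signal of at least 1). Their median log2 ratio was -0.74 for KO DSS over KO naive, 0.08 for WT DSS over WT naive and -0.58 for KO DSS over WT DSS. In WT, 4 of 9 were below 0 (all genes 51.6%), and 1 was past 2-fold lower, Slc26a3 at 2.30-fold (all genes 5.13%). Their summed relative signal was 306 in KO DSS, 464 in WT DSS, 508 in KO naive and 435 in WT naive. Such sums follow the brightest probes most, here those of Guca2a and Car1. Krt20 was lowest in WT naive, at 51.6 against 55.4 in KO DSS. The 8 general epithelial markers, all measured on all arrays, had medians of -0.33 with DSS in KO and 0.23 in WT, and sums of 335 in KO DSS, 425 in WT DSS, 416 in KO naive and 357 in WT naive. Of these, Krt8 was level in KO DSS and WT naive, at 100 in each. The 6 goblet markers summed to 400 in KO DSS, 515 in WT DSS, 565 in KO naive and 474 in WT naive. Among them KO DSS was the lowest pool for Fcgbp and Clca1 only. Muc2 was lowest in WT DSS, at 35.1 against 46.6 in KO DSS, and Tff3, Zg16 and Agr2 were lowest in WT naive. Every measured marker of these 3 lists was well above background in each pool, and the part of cell makeup in the transferase values was not tested.

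Marker sums of some other cells, such as macrophages, fibroblasts and smooth muscle, also set the KO DSS pool apart. Those of lymphocytes and adipocytes did not, and pancreatic acinar markers set WT DSS apart. Summed macrophage markers were 22.1 in KO DSS, 12.3 in WT DSS, 8.00 in KO naive and 8.57 in WT naive, and fibroblast markers 113, 66.1, 49.2 and 61.9 in the same order. Smooth muscle markers summed to 121 in KO DSS, 204 in WT DSS, 215 in KO naive and 223 in WT naive. Of 6 neutrophil markers, 4 were past 2-fold higher in KO DSS over KO naive, in WT DSS over WT naive and in KO DSS over WT DSS, where all genes gave 5.67%, 3.44% and 5.06%. Their median log2 ratio with DSS was 5.84 in KO and 4.82 in WT, or 4.67 and 2.67 with dim values at their bound. Their sums, 65.1 in KO DSS, 26.5 in WT DSS, 39.5 in KO naive and 32.3 in WT naive, were carried in WT DSS and in the naive pools by Csf3r, at 29.0, 19.9, 39.2 and 32.2 in the same order. Lymphocyte markers summed to 4.01, 3.74, 3.82 and 3.27 in the same order. Adipocyte markers were high in both DSS pools, at 27.5 in KO DSS and 27 in WT DSS, against 4.55 in KO naive and 4.20 in WT naive. Of 8 pancreatic acinar markers, of a tissue that lies near the colon, 7 were past 2-fold higher with DSS in KO and 7 in WT, where all genes gave 5.67% and 3.44%, and 8 were past 2-fold lower in KO DSS than in WT DSS, where all genes gave 2.2%. Their median log2 ratio was 4.45 with DSS in KO and 6.65 in WT, or 3.06 and 5.56 with dim values at their bound, and -2.41 in KO DSS over WT DSS. Their sums were 8.58 in KO DSS, 31.1 in WT DSS, 6.73 in KO naive and 7.64 in WT naive, those of the naive pools carried by Cela1, at 2.27, 6.19, 6.54 and 7.42 in the same order. Of 6 hepatocyte markers 5 were measured, and they summed to 3.71 in KO DSS, 2.53 in WT DSS, 2.19 in KO naive and 2.46 in WT naive. Among them Cyp2e1, an oxidising enzyme, had 3.06 in KO DSS, 1.56 in WT DSS, 0.317 in KO naive and 0.298 in WT naive, and Alb, of serum albumin, had 0.00930, 0.0237, 0.0283 and 0.0294 in the same order, not well above background in KO DSS. What part these cells have in the transferase values was not tested.

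Promoter windows from RefSeq (GRCm38.p6, 250 bases before to 50 after each start) were found for 43 of the 51 genes named by the rule, 35 of them measured, with 44 starts. The letters TGANTCA, a loose form of the AP-1 site with the middle base free, were searched on both strands. They occurred in 9 of these 44 windows (20.5%), against 7.81% of 32851 windows of all genes. The AP-1 site has C or G at that base, while the windows of Ugt2b38, Ugt2b35 and Ugt1a6a below hold A or T. These shares are thus not counts of AP-1 sites. The letters TGACNNNGC, the core of the antioxidant response element, occurred in 3 of 44 (6.82%), against 12.4% of all, and GCGTG, the core bound by the dioxin receptor, in 10 of 44 (22.7%), against 32.4%. The first 2 motifs share letters and can overlap, and neighbouring paralogs share promoter sequence, so these windows are not independent. The windows below show TGANTCA in capitals with 20 bases on each side where the window allows, for pairs of paralogs and for the 3 members past 2-fold in KO DSS over KO naive that hold it. A match describes letters only.
Gstp1, chr19:4037960-4038006, minus strand: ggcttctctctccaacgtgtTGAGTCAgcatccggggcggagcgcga
Gstp2, chr19:4042284-4042330, minus strand: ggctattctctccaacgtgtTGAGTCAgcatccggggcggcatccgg
Ugt2b37, chr5:87254942-87254988, minus strand: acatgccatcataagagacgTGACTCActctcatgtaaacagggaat
Ugt2b38, chr5:87424343-87424389, minus strand: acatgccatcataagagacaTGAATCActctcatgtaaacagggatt
Ugt2b35, chr5:87000610-87000640, plus strand: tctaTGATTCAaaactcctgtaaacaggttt
Ugt1a6a, chr1:88134665-88134711, plus strand: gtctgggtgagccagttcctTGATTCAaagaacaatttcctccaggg
Sult2b1, chr7:45742603-45742649, minus strand: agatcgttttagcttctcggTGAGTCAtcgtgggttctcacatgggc

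The Gstp1 and Gstp2 windows differ at 7 of 47 bases and at 0 in the motif. These genes had log2 ratios of -0.39 and -0.38 in KO DSS over WT DSS, where the median of the 18 GST genes was -0.39. The Ugt2b37 and Ugt2b38 windows differ at 3 of 47 bases, 1 of them in the motif, and these genes had -0.53 and -0.64. Sult2b1 had -0.99, Ugt2b35 -0.91 and Ugt1a6a 0.53. Any link of these letters to the ratios was not tested.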

How the data were processed

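Colon RNA of 4 pools of 3 mice each was measured on 4 single-colour Agilent arrays of 1 slide. Per the labels' protocols, 200 ng of total RNA were amplified and labelled with Cy3. Agilent Feature Extraction 11.5.1.1 made the deposited intensity of each spot (the processed signal, background-subtracted and detrended, per the file headers). The series table deposited by the authors holds a signal per spot, the processed signal over a divisor close to the array's 75th percentile, from the values themselves. Positions are those of mm9, per the file headers.

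Control spots and outlier spots (129 to 136 per array) were left out, processed signals were divided by the 75th percentile of their array and repeat spots were averaged in log2. Of 39429 probes, 28720 passed as well above background on an array, and the brightest stands for its gene. Where the lower array did not measure a gene, the fold uses the higher of its own signal and the lowest signal among that array's probes well above background ("at least"). Medians use measured values. A gene counts at 2-fold when well above background on the higher array. The additive fit (genotype and treatment, 1 residual degree of freedom) used limma 3.58.1 in R 4.3.3 over 22162 genes with Benjamini-Hochberg adjustment, and was tested on simulated data. Symbols of genes other than members came from a RefSeq table of GRCm38.p6, used for names (27508 probes by accession, 3544 by symbol, 404 by older symbol, 7973 kept the name in the file).

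Values of every pool are given for members past 2-fold in any comparison, the 3 with the highest mean signal in each family, and the 4 in each family with the largest log2 ratio, by the smaller of both genotypes, of the same sign in both. Ugt1a10, Ugt8a, Gstm2, Gstm7, Gstp1 and Sult1e1, and the list genes given with values, were added after their values were seen. Levels of different probes are not comparable. The members, lists and rules were chosen with earlier results of these data known. Alternatives were median scaling, quantile normalization, normexp (offset 50) with quantile normalization, the deposited series table, probes well above background on all arrays, the mean of all probes, bounds for dim values or none, a 1.5-fold threshold, a trended robust variance and a fit of every probe.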

Additional observations from a re-analysis of the deposited data

How the results depend on the processing

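With 1 array per group no value has a replicate error, and 0.193 on the log2 scale, the prior SD of the limma fit, served as the yardstick. Of 182 summary values under the alternatives, 160 stayed within that yardstick or, for counts, within 1.5 times, and 22 moved. Among 102 family medians under the alternatives 5 changed sign, each at most 0.0927 in size as reported. The GST median of WT DSS over WT naive was -0.06 under quantile normalization and -0.05 under normexp with it, that of SULT -0.05 and -0.02, and the SULT median of KO naive over WT naive was -0.01 with probes well above background on all arrays. Under quantile normalization, and under normexp with quantile normalization, the UGT median of KO DSS over KO naive was -0.50 and -0.44, the GST difference of responses -0.21 and -0.21, and that of SULT -0.34 and -0.37. Under normexp, members past 2-fold in KO DSS over KO naive were 0 higher, in WT DSS over WT naive 1 lower, and in KO DSS over WT DSS 2 lower. With probes well above background on all arrays, WT DSS over WT naive had 0 higher and 1 lower. With the mean of all probes, 4 were lower in WT DSS over WT naive, 2 in KO naive over WT naive and 2 in KO DSS over WT DSS. With measured dim values and no bound, 1 was lower in KO naive over WT naive. At 1.5-fold, 16 were lower in KO DSS over KO naive, 3 higher in WT DSS over WT naive, 1 lower in KO naive over WT naive, and 1 higher and 15 lower in KO DSS over WT DSS. The limma fit called 1 member for DSS, Ugt1a6a, with dim probes on any array left out and with the trended robust variance. Over all genes these fits called 1272 and 1611 for DSS in place of 0. The cause was not tested, except that a lower fold threshold admits more genes by construction.

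Of 41 members, 36 or 37 were below 0 in KO DSS over WT DSS under each scaling. The size of their median depended on the scaling. It was -0.41 as reported, -0.51 with median scaling, -0.26 after quantile normalization and -0.28 after normexp with it. The medians of all genes were -0.09, -0.18, -0.05 and -0.05 in the same order. The share of higher among all genes past 2-fold in WT DSS over WT naive was 40.1%, against 53.3% with median scaling and 52.8% with normexp. In KO DSS over KO naive it was 53.2%, against 64.1% with normexp. Among log2 ratios of single members 66 of 968 moved by more than the yardstick and 42 changed sign, none of which was past 2-fold as reported (0.902 at most). Dim members such as Ugt2a3 and Sult2a2 are limited by signal over background. No paired analysis was possible because each group is 1 array.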
